A study of Homo sapiens with 10 samples.

Results

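The genes described here encode the nuclear subunits of the oxidative phosphorylation machinery, and the question is where ZMYND8, a chromatin reader that recognizes acetylated histone tails, was found at their starts. The members are the protein-coding genes of GENCODE release 44 on GRCh37, chromosomes 1 to 22 and X, whose symbol begins with NDUFA, NDUFB, NDUFC, NDUFS, NDUFV, UQCR, COX4 to COX8 or ATP5, or is SDHA, SDHB, SDHC or SDHD. This name rule found 98 of 20098 protein-coding genes. It gave 46 genes for Complex I (7 core subunits, 30 accessory subunits, the 8 assembly factors NDUFAF1 to NDUFAF8 and the read-through gene NDUFC2-KCTD14), 4 for Complex II, 9 for Complex III, 19 for Complex IV and 20 for Complex V. The rule takes names only, so it lets in assembly factors, the ATP synthase inhibitor ATP5IF1 and 9 tissue-restricted isoforms or retrocopies, and it misses CYC1, the cytochrome c1 subunit of Complex III.

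The chromatin came from HEK293 cells, an established human embryonic kidney line, and was precipitated either with an antibody to ZMYND8 (2 samples) or with anti-FLAG (2 samples). For the anti-FLAG ChIP, Flp-In T-REx HEK293 cells expressed 3×FLAG-tagged ZMYND8 from an inducible transgene after 10 nM doxycycline. The labels of the ZMYND8 ChIP name cells carrying the tagged protein as WT or as the N228F mutant of its bromodomain without saying which, so the genotype behind that list is not settled. The authors deposited 1 peak list for each target, with 15086 ZMYND8 peaks and 63690 FLAG-ZMYND8 peaks in hg19 coordinates. Neither list names a replicate or counts reads, so the depth stays unknown, no spread between replicates can be given, and a gene without a peak is one where nothing passed the calling threshold of the authors. The score column holds 1 in every row, and peak width, with a minimum of 151 bp for ZMYND8 and 167 bp for FLAG-ZMYND8, is the only graded value. The lists differ in size and in antibody, and the part of either in the differences between them was not tested.

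Oxidative phosphorylation makes most of the ATP of a resting cell. Complexes I and II pass electrons from NADH and succinate to ubiquinone, Complex III passes them on to cytochrome c, and Complex IV hands them to oxygen, while Complexes I, III and IV pump protons across the inner mitochondrial membrane that drive the rotary ATP synthase, Complex V. Apart from a small set encoded in mitochondrial DNA, the subunits are nuclear genes, and many of their promoters are known to carry sites for NRF1, for the ETS factor GABPA (also called NRF2) and for YY1.

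The promoter sequences come first, whether or not a peak was called at the gene, and the positions of their motifs were not intersected with those of the peaks. RefSeq sequences on GRCh38.p14, from 250 bases before to 50 bases after the first start listed for each gene, were matched by symbol or synonym for 79 of the 98 members. Peak distances are counted from the GENCODE start instead, which lies elsewhere at some genes, ATP5MC2 among them. Motif positions and peak distances therefore cannot be read against each other. Short motifs were searched on both strands: CGCATGCG for NRF1, CCGGAAG for GABPA and other ETS factors, AAGATGG for YY1 and GGGCGG, the GC box of SP and KLF factors. No match of the NRF1, ETS or YY1 letters overlapped a match of another of these motifs. The ETS matches of ATP5MK at -163 and -160 shared bases and are counted separately. The NRF1 letters stood in 11 of the 79 promoters, and those genes were picked for printing because of the match, after their values were seen. All 11 matches lay before the start, between positions -219 and -3. Capitals mark the motif in each 30-base window, given 5′ to 3′ on the strand of the gene with its GRCh38.p14 position.
NDUFA8 (chr9:122159764-122159793, - strand): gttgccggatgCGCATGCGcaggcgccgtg
NDUFB4 (chr3:120596167-120596196, + strand): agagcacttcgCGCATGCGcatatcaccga
NDUFS6 (chr5:1801351-1801380, + strand): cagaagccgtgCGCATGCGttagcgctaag
NDUFS7 (chr19:1383822-1383851, + strand): gttccggtttcCGCATGCGctccgagccgc
NDUFAF5 (chr20:13785014-13785043, + strand): agccgcgctggCGCATGCGcacaaaaagcg
SDHD (chr11:112086753-112086782, + strand): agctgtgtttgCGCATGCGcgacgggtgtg
COX6A1 (chr12:120437883-120437912, + strand): cggagggcacaCGCATGCGcacgaaggaaa
ATP5F1C (chr10:7788145-7788174, + strand): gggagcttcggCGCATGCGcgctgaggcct
ATP5MC2 (chr12:53676106-53676135, - strand): ggcccgggtcaCGCATGCGctgagccttcc
ATP5ME (chr4:674335-674364, - strand): gccgctgacggCGCATGCGtgcgcccagct
ATP5PF (chr21:25735155-25735184, - strand): cactcaaagagCGCATGCGtacagagcaag
Of these 11 genes, 8 had a ZMYND8 peak with its midpoint within 3 kb of the GENCODE start. Such a peak stood at 34 of the 79 matched members and at 34.1% of all protein-coding genes. These counts were not tested. NDUFA8 and SDHD had no peak of either list, and COX6A1 had a FLAG-ZMYND8 peak alone.

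The next windows show the ETS and YY1 letters in Complex II and in the subunit genes picked, class by class, for the widest ZMYND8 peak that overlapped a FLAG-ZMYND8 peak, however narrow that was. ETS letters were found in 21 promoters, with 23 of 26 matches before the start. YY1 letters were found in 16 promoters, and 12 of the 17 matches lay after the start, as far as position 39. The YY1 letters AAGATGG contain an ATG, the letters of a start codon.
NDUFS3, ETS at -102 (chr11:47578960-47578989, + strand): ccggaacctccgCTTCCGGctccacgtccg
NDUFS3, ETS at -83 (chr11:47578979-47579008, + strand): ctccacgtccgcCCGGAAGaagatctgctg
NDUFS1, ETS at -157 (chr2:206159584-206159613, - strand): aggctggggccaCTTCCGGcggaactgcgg
NDUFA6, YY1 at 26 (chr22:42090730-42090759, - strand): ggatgctttggcAAGATGGcggggagcggc
SDHB, ETS at -128 (chr1:17054143-17054172, - strand): ccacccgggaaaCCGGAAGccgcctcccac
SDHB, YY1 at 11 (chr1:17054005-17054034, - strand): acgtcaggagccAAGATGGcggcggtggtc
SDHD, ETS at -77 (chr11:112086784-112086813, + strand): accgcctctcgaCTTCCGGttcacccagca
UQCRH, ETS at -46 (chr1:46303640-46303669, + strand): gagtgtgccgcaCTTCCGGccagatcgccg
UQCRQ, ETS at -54 (chr5:132866576-132866605, + strand): aaatggtatctcCCGGAAGttacctcacga
No NRF1, ETS or YY1 letters were found in the windows of COX5A, ATP5F1E and SDHA, which says only that these letters are not in these 300 bases.

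Longer stretches are given for a Complex I and a Complex V gene with wide ZMYND8 peaks and, for contrast, for SDHB, at whose start only FLAG-ZMYND8 peaks were called. Each run is the 250 bases before the RefSeq start, with NRF1, ETS and YY1 letters in capitals and GC boxes left unmarked.
NDUFS6 (GRCh38.p14, chr5:1801157-1801406, + strand): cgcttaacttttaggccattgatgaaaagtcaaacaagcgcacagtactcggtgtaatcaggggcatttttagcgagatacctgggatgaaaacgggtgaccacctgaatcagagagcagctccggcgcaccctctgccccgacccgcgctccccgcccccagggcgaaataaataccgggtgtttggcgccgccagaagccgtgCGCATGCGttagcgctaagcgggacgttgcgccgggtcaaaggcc
ATP5MC2 (GRCh38.p14, chr12:53676084-53676333, - strand): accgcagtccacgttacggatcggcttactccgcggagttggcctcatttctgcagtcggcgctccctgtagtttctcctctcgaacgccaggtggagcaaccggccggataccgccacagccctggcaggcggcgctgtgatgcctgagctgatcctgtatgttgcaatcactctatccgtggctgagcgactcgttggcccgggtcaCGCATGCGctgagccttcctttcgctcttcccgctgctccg
SDHB (GRCh38.p14, chr1:17054033-17054282, - strand): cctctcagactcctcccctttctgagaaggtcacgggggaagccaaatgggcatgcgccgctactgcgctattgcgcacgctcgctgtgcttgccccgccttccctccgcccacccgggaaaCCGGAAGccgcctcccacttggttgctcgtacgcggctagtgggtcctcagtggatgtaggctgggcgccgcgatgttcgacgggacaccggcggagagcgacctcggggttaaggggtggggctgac
NDUFAF5, an assembly factor that hydroxylates a core subunit, shows a minimum-width ZMYND8 peak with its midpoint in an intron.
NDUFAF5 peak (hg19, chr20:13765910-13766060, + strand): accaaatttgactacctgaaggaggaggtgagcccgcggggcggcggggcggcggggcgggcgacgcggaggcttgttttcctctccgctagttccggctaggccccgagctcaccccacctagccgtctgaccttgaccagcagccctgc

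Compared with all promoters of protein-coding genes in the same RefSeq table, 1 per gene (15812), the members held the NRF1 letters in 13.9% against 2.88%, the ETS letters in 26.6% against 14.2%, the YY1 letters in 20.3% against 6.40% and the GC box in 57.0% against 58.5%. Among the 34 matched members with a ZMYND8 peak within 3 kb, 8 held the NRF1 letters, 8 the ETS letters, 8 the YY1 letters and 19 the GC box. Among the 45 without, the numbers were 3, 13, 8 and 26. A match is a run of letters and was not tested for binding by any factor.

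**Figure D1:**
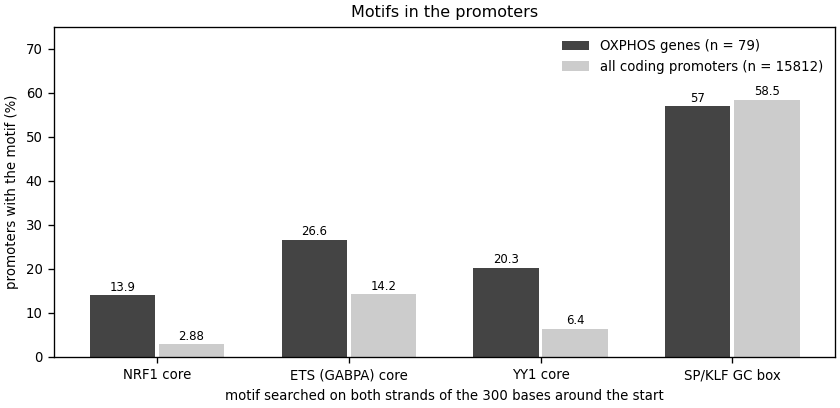
Share of promoters (%) that hold each motif on either strand of the 300 bases around the RefSeq start, for the 79 matched oxidative phosphorylation genes (dark bars) and for 15812 protein-coding promoters (light bars). The dark bar is higher for NRF1, ETS and YY1, and the GC box is at 57.0% and 58.5%.

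ZMYND8 was present at the starts of a good share of these genes. A gene was counted when a peak midpoint lay within a set distance of its 5′ end (TSS). Within 1 kb, 38 of the 98 members had a ZMYND8 peak, or 38.8% (95% Wilson interval 29.7 to 48.7%), where 28.5% of all protein-coding genes did. Within 3 kb it was 43 members, or 43.9% (34.5 to 53.7%), against 34.1%. The intervals cover counting error only, and genes are not replicates of an experiment.

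FLAG-ZMYND8 peaks were found at more of them. Within 1 kb, 62 members (63.3%, Wilson interval 53.4 to 72.1%) had such a peak, against 49.3% of all protein-coding genes. Within 3 kb, 68 members (69.4%, 59.7 to 77.6%) did, against 58.1%.

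Peaks of both lists stood at 30 members within 1 kb (30.6%, Wilson interval 22.4 to 40.3%, background 22.7%) and at 35 members within 3 kb (35.7%, 26.9 to 45.6%, background 29.4%). At 27 members (27.6%, 19.7 to 37.1%) a ZMYND8 peak within 3 kb overlapped a FLAG-ZMYND8 peak by at least 1 bp, where 20.4% of all genes had such a pair. At 22 members (22.4%, 15.3 to 31.7%) neither list had a peak within 3 kb, where this held for 37.2% of all genes. The intervals for both lists, at either distance, and for overlapping pairs contain the background share, and that for ZMYND8 within 3 kb begins just above it. A further 8 members (8.16%) had a ZMYND8 peak alone, beside 4.73% of all genes. At 33 members (33.7%) there was a FLAG-ZMYND8 peak alone, beside 28.7% of all genes.

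**Figure D2:**
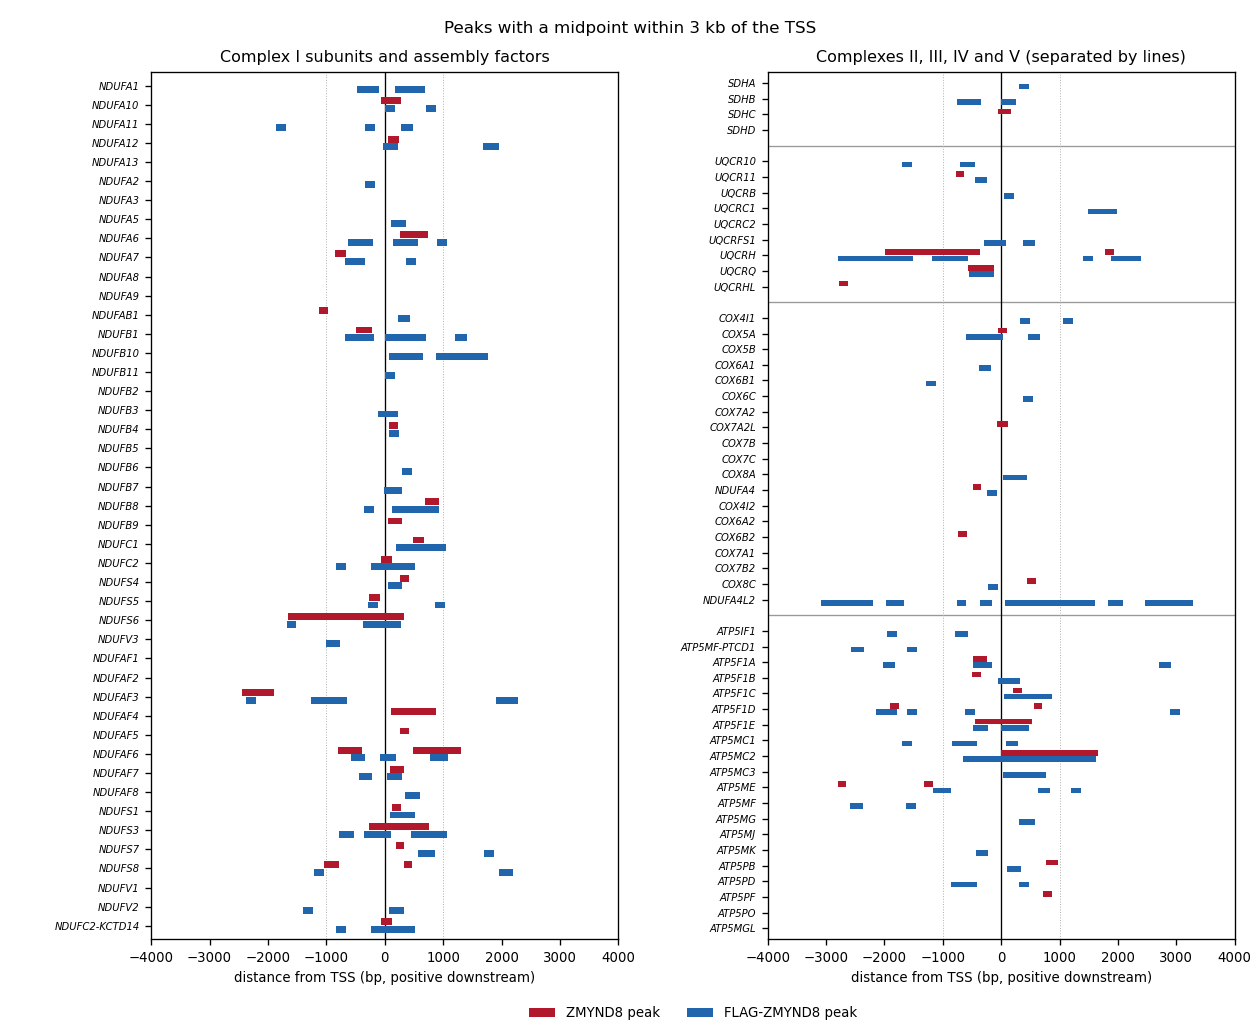
Peaks with a midpoint within 3 kb of the TSS of the oxidative phosphorylation genes, 1 row per gene and 1 gene not shown, drawn to scale against the distance from the TSS (bp, positive downstream), with ZMYND8 peaks in red and FLAG-ZMYND8 peaks in blue. Rows left blank are the 22 genes with no peak, and the widest bars are at NDUFS6, UQCRH, NDUFA4L2 and ATP5MC2.

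Complex I, the NADH dehydrogenase, had the largest number of genes with peaks and also the most members. Of its 46 genes, 22 had a ZMYND8 peak within 1 kb and 24 within 3 kb (52.2%, Wilson interval 38.1 to 65.9%). The shares of all genes were 28.5% and 34.1%. FLAG-ZMYND8 peaks were at 34 within 3 kb (73.9%, 59.7 to 84.4%), beside 58.1% of all genes. No peak was called at 9 genes (19.6%, 10.7 to 33.2%), beside 37.2% of all genes. By class, 4 of 7 core subunits, 14 of 30 accessory subunits and 5 of 8 assembly factors had a ZMYND8 peak within 3 kb, and 6, 23 and 4 had a FLAG-ZMYND8 peak. The class intervals contain the 34.1% and 58.1% of all genes, except that of FLAG-ZMYND8 at accessory subunits (59.1 to 88.2%).

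NDUFS3, a core subunit of the arm that hands electrons to ubiquinone, carried the widest ZMYND8 peak among the core subunits. It spanned chr11:47586615-47587646 (hg19), 1032 bp with a midpoint 242 bp downstream of the TSS, and covered the TSS itself. FLAG-ZMYND8 peaks of 250, 476 and 621 bp were centered at -654, -123 and 759 bp, and the latter pair overlapped the ZMYND8 peak. The start of PTPMT1 lies 94 bp away, and the midpoint of the ZMYND8 peak was nearest to the start of another neighbor, CELF1.

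At NDUFS1, the large iron-sulfur subunit that takes electrons from the flavin site, the ZMYND8 peak was narrow. It had the minimum width of 151 bp, with its midpoint 208 bp into the gene in an intron (chr2:207023950-207024100). A FLAG-ZMYND8 peak of 422 bp at 309 bp overlapped it. The other core subunits with peaks of both lists were NDUFS7 and NDUFS8, both carriers of iron-sulfur clusters near the ubiquinone site, and in neither did the peaks of the lists overlap. NDUFV2 had FLAG-ZMYND8 peaks alone, and NDUFV1, the flavoprotein that binds NADH, had none.

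Among the accessory subunits, NDUFS6 had the widest ZMYND8 peak of all members. The peak ran over chr5:1799860-1801847, a width of 1988 bp that ranks 133rd of the 15086, and its midpoint lay at -668 bp. FLAG-ZMYND8 peaks of 653 bp at -41 bp and of 167 bp at -1598 bp overlapped it. The gene shares this stretch with MRPL36, a mitochondrial ribosomal protein gene whose start is 41 bp away, and the midpoint is nearer to that start.

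NDUFA6, an accessory subunit of the LYR family, had no coding neighbor within 3 kb. Its ZMYND8 peak of 477 bp lay within an intron at 497 bp, and a 437 bp FLAG-ZMYND8 peak at 359 bp overlapped it. Further FLAG-ZMYND8 peaks of 435 and 167 bp lay at -412 and 981 bp.

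None of the 4 genes of Complex II, succinate dehydrogenase, had both lists within 3 kb. The Wilson interval, 0 to 49.0%, contains the 29.4% of all genes. SDHA, the flavoprotein, had a FLAG-ZMYND8 peak of the minimum width (167 bp) at 393 bp. SDHB, the iron-sulfur subunit, had FLAG-ZMYND8 peaks of 260 bp at 128 bp and of 406 bp at -556 bp. SDHC, a membrane anchor, had instead a ZMYND8 peak of 214 bp at 58 bp (chr1:161284123-161284336) and no FLAG-ZMYND8 peak closer than 22839 bp. SDHD, the other anchor, had no peak, with the nearest FLAG-ZMYND8 midpoint 12168 bp away. All 4 starts met the CpG-rich criterion given below.

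In Complex III, cytochrome bc1, 4 of 9 genes had a ZMYND8 peak within 3 kb and 2 within 1 kb, and 7 had a FLAG-ZMYND8 peak. Within 3 kb the Wilson intervals were 18.9 to 73.3% and 45.3 to 93.7%, and they contain the 34.1% and 58.1% of all genes. UQCRH, the hinge protein that contacts cytochrome c1, had a ZMYND8 peak of 1633 bp at -1179 bp (chr1:46767375-46769007, rank 242 by width) and another of 151 bp at 1847 bp. In all, 4 FLAG-ZMYND8 peaks of 167 to 1272 bp flanked its start, and none covered it. The wide ZMYND8 peak lay nearer to the start of LRRC41, which is 82 bp from that of UQCRH. At UQCRQ, a small subunit near the ubiquinone site, the peaks of the lists, 434 bp wide at -346 bp for ZMYND8 and 430 bp at -345 bp for FLAG-ZMYND8, covered nearly the same bases (chr5:132201760-132202193 and chr5:132201763-132202192). UQCR11 was the third subunit with both. UQCR10, UQCRB, UQCRC1 and UQCRFS1, the Rieske iron-sulfur protein, had FLAG-ZMYND8 peaks alone, and the core protein UQCRC2 had none.

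Complex IV, cytochrome c oxidase, had the lowest shares among the 3 larger complexes. Of its 19 genes, 5 had a ZMYND8 peak (26.3%, Wilson interval 11.8 to 48.8%) and 9 a FLAG-ZMYND8 peak (47.4%, 27.3 to 68.3%) within 3 kb, while 8 had neither (42.1%, 23.1 to 63.7%). The shares of all genes were 34.1%, 58.1% and 37.2%, and each lies inside the matching interval of Complex IV. The intervals overlap those of Complexes I and V, so the complexes cannot be ranked from these counts. Of the 19 genes, 7 are tissue-restricted isoforms. Among the 12 subunits alone, the shares within 3 kb were 25% for ZMYND8, 58.3% for FLAG-ZMYND8 and 33.3% for neither list. By the criterion given below, 42.1% of the Complex IV starts were CpG-rich, beside 65.2% in Complex I and 80% in Complex V. The part of isoforms or base composition in the lower shares was not tested. COX5A, a subunit on the matrix side, was the only gene of the complex where peaks of the lists overlapped: 151 bp at 19 bp for ZMYND8 (chr15:75230330-75230480) and 645 bp at -287 bp for FLAG-ZMYND8 met at its start. NDUFA4, now counted as a Complex IV subunit, had a ZMYND8 peak of 151 bp at -417 bp beside a FLAG-ZMYND8 peak of 167 bp at -163 bp that did not touch it. COX4I1, COX6A1, COX6B1, COX6C and COX8A had FLAG-ZMYND8 peaks alone, and COX5B, COX7A2, COX7B and COX7C had no peak.

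The isoforms and retrocopies, genes used mainly in muscle, testis, lung or under low oxygen, number 9. Within 3 kb, ZMYND8 was called at 3 of them (33.3%, Wilson interval 12.1 to 64.6%, beside 34.1% of all genes), FLAG-ZMYND8 at 2 (22.2%, 6.32 to 54.7%, beside 58.1%) and neither at 5. COX8C, expressed in testis, had both, with 151 bp at 514 bp for ZMYND8 and 167 bp at -144 bp for FLAG-ZMYND8. COX6B2, also of testis, had a ZMYND8 peak of 151 bp at -660 bp alone, and UQCRHL, a retrocopy of UQCRH, a ZMYND8 peak of 151 bp at -2700 bp. All 4 of these peaks had the minimum width of their list. The muscle forms COX6A2 and COX7A1, with COX4I2, COX7B2 and ATP5MGL, had no peak within 3 kb.

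NDUFA4L2, the counterpart of NDUFA4 that is induced in low oxygen, stood apart from the other isoforms. It had 7 FLAG-ZMYND8 peaks within 3 kb, the most of any member, from 167 to 1550 bp wide, and no ZMYND8 peak closer than 13759 bp. The widest, of 1550 bp at 838 bp, was also the widest FLAG-ZMYND8 peak at any member without a ZMYND8 peak. Next in that order came NDUFB10, an accessory subunit of the membrane arm of Complex I, with 884 bp at 1327 bp, and ATP5MC3 with 740 bp at 399 bp.

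For Complex V, the ATP synthase, 9 of 20 genes had a ZMYND8 peak (45.0%, Wilson interval 25.8 to 65.8%) and 16 a FLAG-ZMYND8 peak (80.0%, 58.4 to 91.9%) within 3 kb. The shares of all genes were 34.1% and 58.1%. Of the catalytic head and central stalk, ATP5F1A to ATP5F1E, all 5 genes had peaks of both lists within 3 kb, beside 8 of 20 in the whole complex and 29.4% of all genes. This group was singled out after its values were seen. ATP5F1E, the epsilon subunit of the stalk, had a ZMYND8 peak of 984 bp that covered its start (chr20:57606874-57607857, midpoint at 35 bp) and overlapped FLAG-ZMYND8 peaks of 480 and 256 bp. ATP5F1A and ATP5F1B, the alpha and beta subunits of the head, had ZMYND8 peaks of 253 bp at -365 bp and of 151 bp at -426 bp, and only that of ATP5F1A overlapped a FLAG-ZMYND8 peak. The midpoint of the ATP5F1A peak was nearest to the start of a neighbor, HAUS1.

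The genes for subunit c, which makes up the rotating ring and is encoded by ATP5MC1, ATP5MC2 and ATP5MC3, differed from each other. ATP5MC2 had the widest ZMYND8 peak of the complex, 1655 bp at 827 bp (chr12:54069538-54071192, rank 238 by width), and the widest FLAG-ZMYND8 peak at any member, 2276 bp at 480 bp (chr12:54069575-54071850, rank 62 of 63690). Nearly all of the ZMYND8 peak lay within the FLAG-ZMYND8 peak, which ran on upstream past the start of the gene. ATP5MC1 and ATP5MC3 had FLAG-ZMYND8 peaks alone. ATP5ME and ATP5PB, of the membrane part and the peripheral stalk, had both lists, ATP5IF1, the inhibitor, had FLAG-ZMYND8 alone, and ATP5MJ and ATP5PO had neither.

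**Figure D3:**
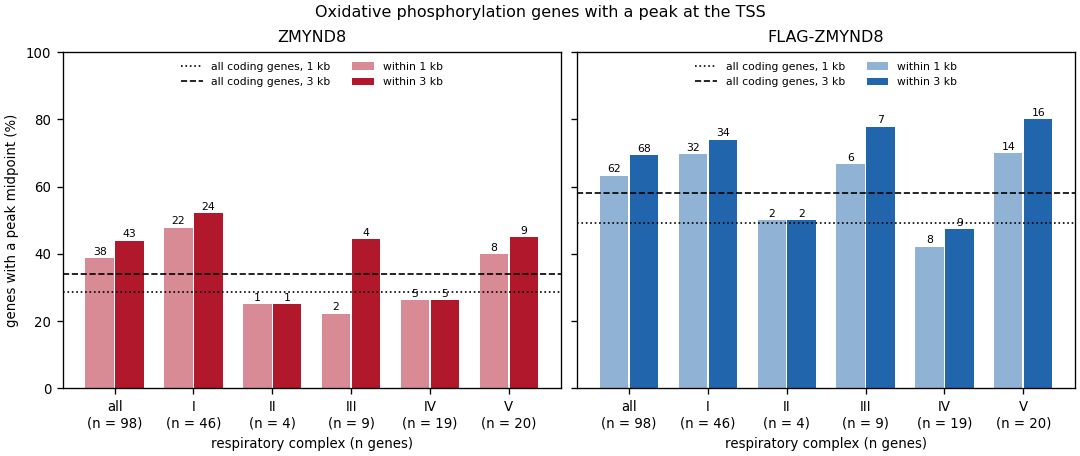
Share of genes (%) with a peak midpoint within 1 kb (light bars) and 3 kb (dark bars) of the TSS, for ZMYND8 (left) and FLAG-ZMYND8 (right), by respiratory complex. The numbers above the bars are gene counts, the dotted and dashed lines are the shares of all 20098 protein-coding genes, and only Complex I and Complex V lie above all 4 lines.

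The 8 members with a ZMYND8 peak and no FLAG-ZMYND8 peak within 3 kb made up 8.16% of the members, against 4.73% of all genes. They were spread over all 5 complexes: NDUFB9, NDUFAF4, NDUFAF5, SDHC, UQCRHL, COX7A2L, COX6B2 and ATP5PF. The widest was at NDUFAF4, an assembly factor, with 775 bp at 491 bp in an intron (chr6:97344889-97345663), and no FLAG-ZMYND8 peak lay closer than 27054 bp. NDUFB9, a LYR-family accessory subunit, had 245 bp at 177 bp in a coding exon. COX7A2L, a factor in joining complexes into supercomplexes, had 189 bp at 20 bp in an untranslated exon. The ATP5PF peak, of 151 bp at 797 bp, is the same peak that lies 306 bp downstream of the start of GABPA. That gene is on the opposite strand from this peripheral stalk gene, with starts 1103 bp apart and the peak downstream of both. NDUFAF5, whose peak sequence is printed above, had 151 bp at 332 bp.

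Some members share a promoter and are not separate observations, namely NDUFC2 with NDUFC2-KCTD14, and ATP5MF with ATP5MF-PTCD1. The starts of the members had 47 distinct ZMYND8 and 118 distinct FLAG-ZMYND8 peaks around them within 3 kb. Of these, 28 ZMYND8 peaks (59.6%) overlapped a FLAG-ZMYND8 peak and 32 FLAG-ZMYND8 peaks (27.1%) overlapped a ZMYND8 peak, beside 56.4% and 21.4% of the peaks at all protein-coding starts.

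The peaks stood close to the TSS and more often downstream of it. The nearest ZMYND8 peak was a median of 398 bp from the TSS over the 43 genes (358 bp over all genes with a peak) and a median of 189 bp wide (230 bp). For FLAG-ZMYND8 the medians over the 68 genes were 316.5 bp (353 bp) and 252.5 bp (255 bp). Within 1 kb, 27 distinct ZMYND8 peaks lay downstream and 12 upstream, or 69.2% downstream beside 67.1% over all genes. For FLAG-ZMYND8 there were 49 and 35, or 58.3% beside 60.7%. In Complex III, by contrast, all 4 nearest ZMYND8 peaks were upstream.

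**Figure D4:**
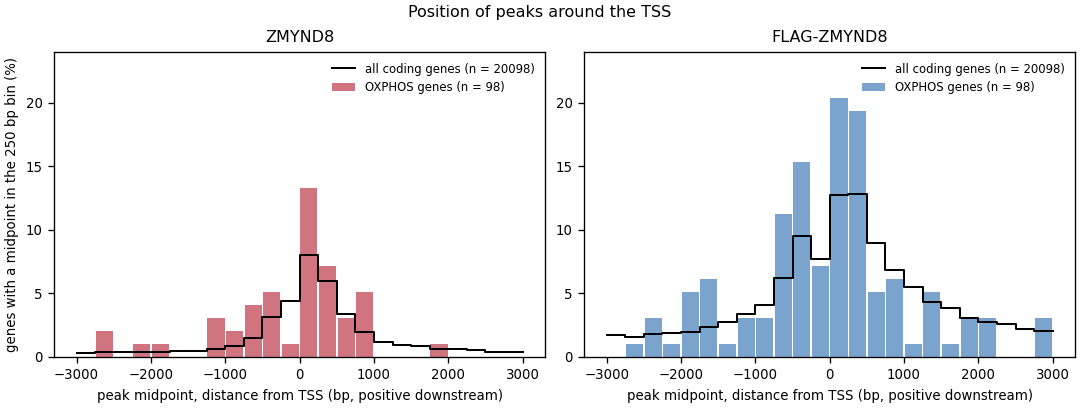
Share of genes (%) with a peak midpoint in each 250 bp bin around the TSS (distance in bp, positive downstream), for ZMYND8 (left) and FLAG-ZMYND8 (right). Bars are the 98 oxidative phosphorylation genes and the line is all 20098 protein-coding genes, and the tallest bar of each panel is the bin just downstream of the TSS.

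Many of these genes share their promoter region with another gene. The start of another protein-coding gene lay within 3 kb for 49 members (50.0%), where 21.9% of all genes had such a neighbor. By complex this held for 30 of 46 genes in Complex I and for 3 of 19 in Complex IV. Where a neighbor was present, ZMYND8 was called within 3 kb at 44.9% and FLAG-ZMYND8 at 73.5% of the members, beside 47.5% and 75.8% of all genes with a neighbor. Among the 49 without one, the shares were 42.9% and 65.3%, beside 30.4% and 53.1%. Of the 47 ZMYND8 peaks at members, 11 had their midpoint nearer to the start of the neighbor, which include those at NDUFS3, NDUFS6 and UQCRH, and so did 30 of the 118 FLAG-ZMYND8 peaks.

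Base composition moved with the peaks as well. A start was called CpG-rich when the 1 kb around it had at least 55% G and C and a CpG observed/expected ratio of at least 0.6. That held for 62 members (63.3%) and for 52.1% of all genes. CpG-rich members had a ZMYND8 peak within 3 kb in 53.2% and a FLAG-ZMYND8 peak in 77.4%, beside 49.0% and 78.9% of all CpG-rich genes. Within 1 kb the shares were 50.0% and 75.8%, beside 43.9% and 71.0%. The 36 other members had peaks in 27.8% and 55.6%, beside 17.9% and 35.4%. The part of base composition in the shares of the members was not tested.

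The 22 members without a peak include 15 subunits: NDUFA3, NDUFA8, NDUFA9, NDUFA13, NDUFB2, NDUFB5 and NDUFV1 of Complex I, SDHD, UQCRC2, COX5B, COX7A2, COX7B, COX7C, ATP5MJ and ATP5PO. The assembly factors NDUFAF1 and NDUFAF2 and 5 isoforms make up the rest. Their median CpG ratio was 0.643, against 0.779 at the members with both lists. The nearest FLAG-ZMYND8 midpoint ranged from 4737 bp at ATP5MGL to 554200 bp at COX7B2.

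For 5 of the 22, the result turned on which start was used. GENCODE places the gene start at the outermost transcript, and each of NDUFB2, NDUFAF1, NDUFV1, COX7A2 and ATP5MJ has other transcripts that begin 5495 to 6961 bp further in. A FLAG-ZMYND8 peak lay just downstream of such an inner start: 718 bp wide at 57 bp for NDUFB2, 167 bp at 81 bp for NDUFAF1, 167 bp at 167 bp for NDUFV1, 167 bp at 116 bp for COX7A2 and 448 bp at 154 bp for ATP5MJ. The outermost starts of NDUFV1 and COX7A2 had CpG ratios of 0.214 and 0.0874, far below the member median of 0.725. With every annotated transcript start counted, FLAG-ZMYND8 was within 3 kb at 75 members (76.5%), beside 65.0% of all genes counted in the same way. For ZMYND8, the genes added included NDUFA11, SDHB and ATP5MF, of which NDUFA11, an accessory subunit, had its peak (200 bp) within 1 kb of the inner start, at 265 bp.

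Other genes of the pathway, listed by hand with earlier results of these data known, had somewhat higher shares than the members. Of the 52, 27 had a ZMYND8 peak within 3 kb (51.9%, Wilson interval 38.7 to 64.9%) and 40 a FLAG-ZMYND8 peak (76.9%, 63.9 to 86.3%), intervals that contain the shares of the members. All protein-coding genes had such peaks in 34.1% and 58.1%. The CpG-rich criterion was met by 78.8% of the 52 starts, beside 63.3% of the members and 52.1% of all genes, and its part was not tested. Among 38 assembly factors the counts were 22 (57.9%) and 28 (73.7%). CYC1, the catalytic Complex III subunit missed by the name rule, had 365 bp at 884 bp for ZMYND8 and 271 bp at 1005 bp for FLAG-ZMYND8. Among 11 regulators of these genes, 3 had a ZMYND8 peak (27.3%, Wilson interval 9.75 to 56.6%). They were NRF1 (427 bp at -221 bp), GABPA (151 bp at 306 bp) and the coactivator PPRC1 (233 bp at 580 bp). A FLAG-ZMYND8 peak was at 9 regulators (81.8%, 52.3 to 94.9%), including YY1 and TFAM, the mitochondrial transcription factor.

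Set beside other families of steadily expressed genes, the oxidative phosphorylation genes had shares of a like size. ZMYND8 peaks within 3 kb were at 41.0% of 78 mitochondrial ribosomal protein genes, 42.0% of 81 cytosolic ribosomal protein genes and 43.2% of 44 proteasome subunit genes, beside 43.9% of the members. For FLAG-ZMYND8 the shares were 73.1%, 84.0% and 65.9%, beside 69.4%. Each of these shares but one lay inside the Wilson interval of the members, the exception being FLAG-ZMYND8 at the cytosolic ribosomal genes, whose own interval of 74.5 to 90.4% overlaps that of the members.

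**Figure D5:**
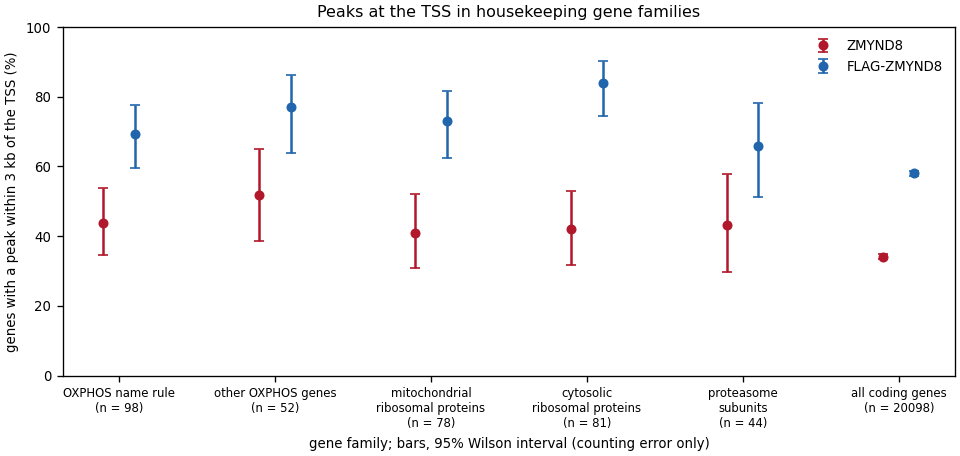
Share of genes (%) with a peak midpoint within 3 kb of the TSS for the oxidative phosphorylation genes, other genes of the pathway, 3 further gene families and all protein-coding genes, with 95% Wilson intervals (counting error only), ZMYND8 in red and FLAG-ZMYND8 in blue. The ZMYND8 points of the families lie between 41.0% and 51.9%, above the 34.1% of all genes.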

How the data were processed

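The members and gene lists were chosen with earlier results of these data known. Reads were aligned by the authors against hg19 using BWA-MEM (BWA 0.7 in the submitters' processing notes), and HOMER gave their profiles. Peak-calling settings and the handling of replicates are not given in the sources used here. The deposited lists hold positions and a score, which is 1 in each row, with no counts, so the depth is unknown. Histone acetylation ChIP and input DNA are not analysed here.

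Each peak was reduced to its midpoint and placed against the gene starts of GENCODE release 44 lifted to GRCh37, the build of hg19. No test was made, since genes are not replicates and there is 1 list per target. Shares have 95% Wilson intervals. Lists overlapped when peaks shared at least 1 bp. Genes were named by rule: the 2 widest overlapping ZMYND8 peaks for Complex I core, Complex I accessory, Complex III, Complex IV (1 found) and Complex V subunits, all Complex II genes, all isoforms and retrocopies, all genes with ZMYND8 alone, the 3 widest peaks with FLAG-ZMYND8 alone, and subunits without a peak. Others named were chosen after their values were seen. Alternatives changed the window, the peak position, the starts, the peaks and the genes. On simulated peaks, placing recovered 2052 of 2052 planted starts among 5000 genes. Promoter sequences are RefSeq, GRCh38.p14. Python 3.11.15, numpy 2.4.6, pandas 2.3.3, scipy 1.17.1 and matplotlib 3.10.9 were used. Values of 1 member are not reported here, although it is included in the counts.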

Additional observations from a re-analysis of the deposited data

How the results depend on the processing

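Every alternative kept the members above all protein-coding genes, with 1 exception: among CpG-rich starts the FLAG-ZMYND8 share within 3 kb was -1.45 percentage points from that of all such genes, where the full set gave 11.3 points. The differences from all genes often shrank. Among CpG-rich starts they came to 6.09 points for ZMYND8 within 1 kb (10.2 in the full set), 4.21 for ZMYND8 within 3 kb (9.76), 4.78 for FLAG-ZMYND8 within 1 kb (63.3% against 49.3% in the full set) and 0.694 for both lists within 3 kb (6.33). For ZMYND8 within 1 kb, the difference was 4.12 points with every transcript start and 4.99 with a 500 bp window. Within 1 kb, the ZMYND8 share of 38.8% moved to 26.5% with a 500 bp window, to 24.5% with peaks wider than the minimum of the list only and to 50.0% among CpG-rich starts. Within 3 kb, peaks wider than the minimum left a ZMYND8 share of 26.5% (43.9% with all peaks), a FLAG-ZMYND8 share of 55.1% (69.4%) and a share with both lists of 20.4% (35.7%). For FLAG-ZMYND8 within 1 kb, 63.3% became 50.0% with the wider peaks, 72.4% with every transcript start (59.0% of all genes) and 75.8% among CpG-rich starts (71.0%). Against all genes under the same alternative, the differences with wider peaks were 4.80 and 3.58 points for ZMYND8 within 1 kb and 3 kb, 10.9 and 8.79 points for FLAG-ZMYND8, and 2.21 points for both lists. With every transcript start, the median distance of the nearest FLAG-ZMYND8 peak fell to 163 bp from 316.5 bp, since more starts were offered. The alternatives not named here moved each share and median by less than the Wilson interval or the spread of the members. No paired analysis was possible because each target has a single list without replicate numbers, and leaving out a replicate could not be tried either. The unknown depth limits every statement on a gene without a peak.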
